A study of Mus musculus with 4 samples.

Results

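The genes described here are 32 genes of the cell cycle and of DNA replication, among the 21887 protein-coding genes of the mouse RefSeq table for GRCm38.p6, whose coordinates are those of mm10. They were chosen by symbol, with earlier results of these data known, and all 32 were matched in that table. They fall into 13 replication genes active in S phase, 10 mitotic genes and 9 genes of G1 and the entry into S phase. The last group also takes in Ccna2, the gene of the cyclin of S phase and G2. Their chromatin was profiled by CUT&Tag, in which an antibody, here against the ATPase Ruvbl2, directs a transposase to chromatin. The libraries were 2 of haematopoietic stem cells (HSC 1 and HSC 2, by replicate number) and 2 of leukaemia stem cells (LSC 1 and LSC 2), all from mouse bone marrow. Where 4 values follow one another without names, they stand in that order. The HSC came from Nup214fl/+ mice, with no leukaemia named, and were gated as LSK cells with CD150 and without CD48. The LSC came from Nup214fl/+ mice whose leukaemia was driven by MLL-AF9, a fusion oncogene, and were sorted as CD34+ CD16/32+ c-Kit+ cells lacking Sca-1 and lineage markers. All 4 libraries thus share the floxed Nup214 allele beside a wild-type allele. The labels name no Cre, no treatment, no age of the mice and no number of pooled animals, and they call the cell type haematopoietic stem cell in the LSC libraries too, so the groups were taken from the sample titles. The LSC gate is also that of normal granulocyte-monocyte progenitors, so maturation and leukaemia cannot be told apart between the groups. Each library was made from 2000 to 5000 sorted cells and 17 to 20 PCR cycles.

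A dividing cell copies its DNA in S phase and separates the copies in mitosis, and the genes for these steps are switched on in waves. At the G1 to S boundary, cyclin D with Cdk4 and cyclin E with Cdk2 release E2F factors, which turn on the genes for the MCM helicase, its loaders and the enzymes that make deoxynucleotides. Later, genes for cyclin B, Cdk1 and the mitotic kinases are turned on through promoters that often hold a CCAAT box and a CHR element. Adult HSC are mostly quiescent, while leukaemic progenitors divide, so the design sets a mostly resting beside a cycling population at genes of the cell cycle.

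The peak lists held 161655, 286107, 216077 and 210541 peaks. Read totals are not in these lists, so sequencing depth is unknown. The 20000 peaks with the largest −log10 p in each library are called listed peaks, and a gene is called listed when at least 1 bp of such a peak lies in its body or in 1 kb on either side. A rank is a place within 1 list, and the lists differ in length, so ranks are set side by side and no change is read from them. Several properties of the lists went with the replicate number. Of the listed peaks, 10.3% and 10.8% lay within 1 kb of a gene end in replicate 1 of HSC and LSC, against 24.9% and 25.7% in replicate 2. Chromosome Y held 91.8 and 94.2 peaks per 10000 in the replicate 1 libraries and 0.561 and 1.24 in the replicate 2 libraries. The peak names follow 1 scheme in both replicate 1 libraries and another in both replicate 2 libraries. Overlap of listed peaks did not simply go with the number: it was 23.7% to 23.9% between the replicate 2 libraries, 6.83% to 6.84% between the replicate 1 libraries and 9.72% to 11.3% between libraries of different number. The labels do not say whether replicates are separate animals, so the spread between them may be technical. Of 8 stem cell marker genes 2, 3, 3 and 3 were listed, and of 8 granulocyte-monocyte progenitor markers 4, 4, 3 and 5, so listed peaks at these markers did not separate the labelled cell types. Of 4 markers each, B cell markers were listed in 1, 1, 2 and 2 cases, T cell markers in 1, 1, 3 and 1 and erythroid markers in 0, 1, 1 and 0. An antibody-free control was not analysed here, and the labels name an anti-rabbit secondary without the host of the primary, so how far a peak depends on Ruvbl2 was not tested.

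Cell cycle genes were listed far more often in both replicate 2 libraries than in both replicate 1 libraries. In HSC replicate 1, 9 of the 32 genes (28.1%) were listed, beside 30.2% of all protein-coding genes. HSC replicate 2 had 22 (68.8%), beside 41.2% of all genes. The count for LSC replicate 1 was 12 (37.5%), beside 32.3%, and LSC replicate 2 reached 24 (75%), beside 41.2%. The share of cell cycle genes was thus near the background in replicate 1 of both cell types and well above it in replicate 2 of both. A deposited peak of any strength was present at 26, 30, 27 and 32 members, beside 73%, 85%, 79.4% and 82.4% of all genes. These genes are not long, with a median length of 13685 bp against 17169 bp for all protein-coding genes. When genes were ordered by their best peak, the median cell cycle gene stood at 56.7%, 13.3%, 50.9% and 26.8% from the top. Over replicates, HSC had 15.5 ± 9.19 listed members (SD, n = 2) and LSC 18 ± 8.49 (SD, n = 2), so the difference of 2.5 between cell types was smaller than the spread within either. At matched replicate numbers LSC had 3 more in replicate 1 and 2 more in replicate 2. Replicate 2 exceeded replicate 1 by 13 in HSC and by 12 in LSC. All genes were also listed more often in replicate 2 (41.2% in each cell type) than in replicate 1 (30.2% and 32.3%). With 2 libraries against 2, an exact two-sided permutation test cannot give a p below 0.333, so no test of cell type was made for any gene.

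**Figure D1:**
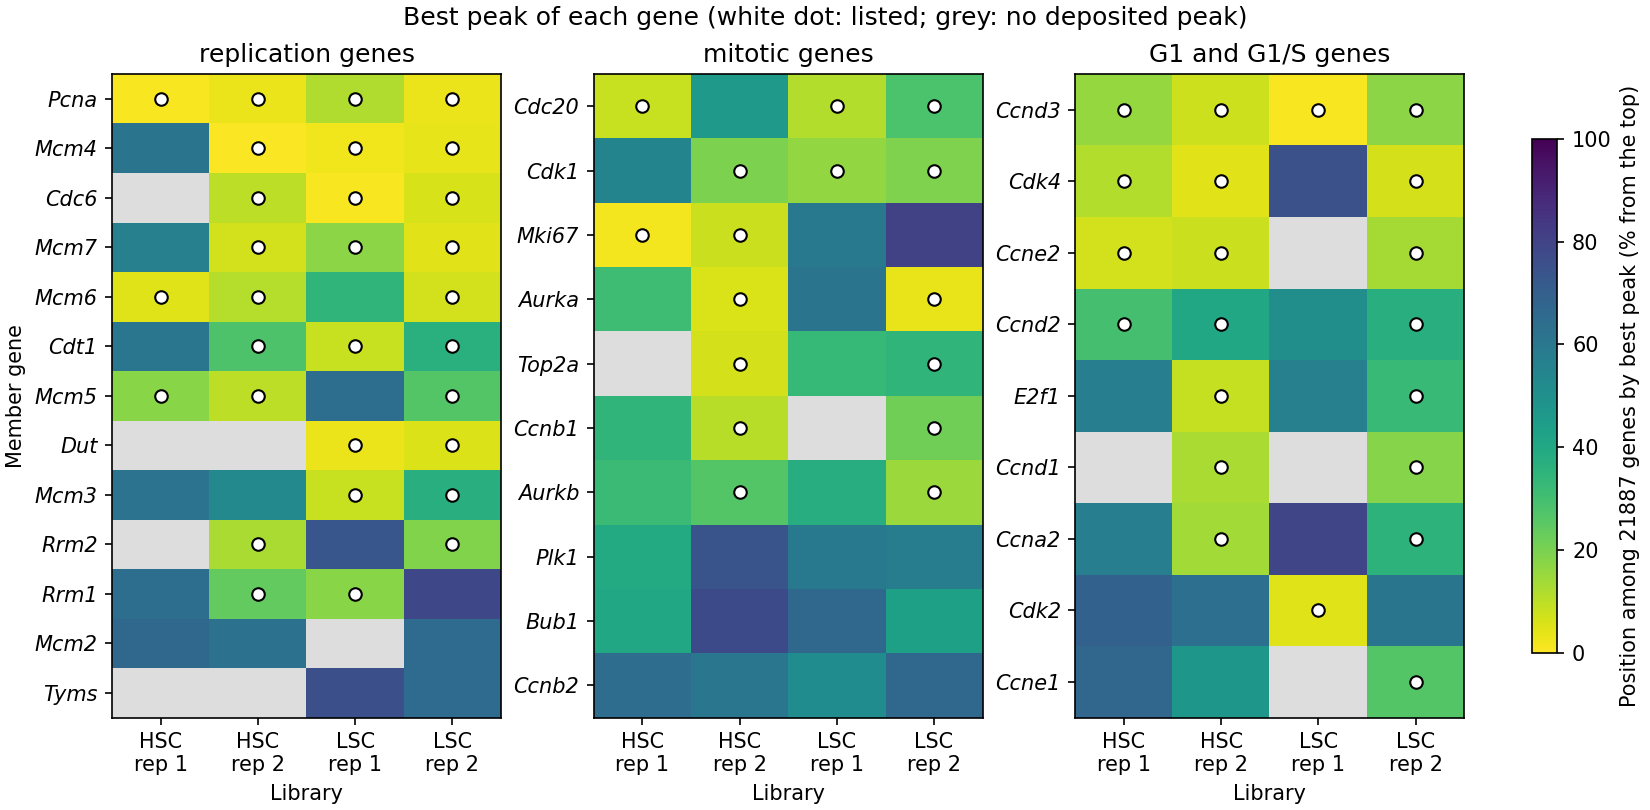
Best peak of each of the 32 genes in each of the 4 libraries, by role; colour gives the position of the gene among 21887 genes ordered by best peak (% from the top, 0 is the strongest), a white dot marks a listed gene and grey a gene with no deposited peak. Pcna and Ccnd3 carry a dot in all 4 libraries, and 8 genes carry dots in both replicate 2 libraries alone.

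Across the libraries, 2 genes were listed in all 4 (6.25%, beside 11.3% of all genes), 11 in 3 libraries (34.4%, beside 14.3%), 12 in 2 (37.5%, beside 18%), 2 in 1 (6.25%, beside 20.9%) and 5 in none (15.6%, beside 35.6%). The pair listed everywhere was Pcna, the sliding clamp of DNA polymerases, and Ccnd3, which encodes cyclin D3. The genes listed in none were Mcm2 and Tyms of the replication group and Bub1, Ccnb2 and Plk1 of the mitotic group. The pattern with the most members was listing in both replicate 2 libraries and in neither replicate 1 library, with 8 genes (25%, beside 7.3% of all genes): Aurka, Aurkb, Ccnb1, Top2a, Ccna2, Ccnd1, E2f1 and Rrm2. The best peaks of the replicate 2 libraries overlapped at Aurka, Aurkb, E2f1 and Rrm2, and not at Ccnb1, Top2a, Ccna2 and Ccnd1. The reverse pattern, both replicate 1 libraries alone, held 0 (beside 1.93%), as did HSC 1 with LSC 2 alone (beside 1.97%), and HSC 2 with LSC 1 alone held Rrm1 (3.12%, beside 2.35%). Genes near the limit of the list included Ccnd2, at HSC ranks 19094 and 18858, just inside, and Top2a at rank 20905 in LSC replicate 1 and Aurka at rank 21318 in HSC replicate 1, just outside. A little farther outside were Bub1 at rank 22081 in LSC replicate 2, Aurkb at 22416 in HSC replicate 1 and Mcm6 at 22561 in LSC replicate 1. With the 40000 strongest peaks, Aurkb, Ccnd3, Cdc20, Mcm6 and Pcna were listed in all 4 libraries, and the share of all genes was not counted there.

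In every library but HSC 1, the strongest listed peak of most listed cell cycle genes lay at the gene's start. The start site and strand of 26 of the 32 genes are in the RefSeq promoter table; Aurkb, Ccna2, Ccnd1, Ccnd2, Ccne2 and Mcm4 have no entry. In HSC replicate 1 a listed peak within 1 kb of the start was found for 4 of 26 genes (15.4%), beside 9.03% of all 17492 genes with a start in that table. The counts for the other libraries were 16 (61.5%, beside 24.1%), 8 (30.8%, beside 9.54%) and 16 (61.5%, beside 24.8%). Pcna was the 1 gene with a listed start peak in all 4, beside 2.84% of all genes. At start sites, then, the share exceeded the background in every library, with 4 genes behind the value in HSC replicate 1. The summit of the strongest listed peak lay within 1 kb of the start in 3 of 7, 14 of 16, 7 of 11 and 14 of 18 listed genes. The corresponding shares of all listed genes were 23.6%, 47.7%, 23% and 48.6%. In LSC replicate 1 these 7 summits lay a median of 20 bp from the start, against 197 bp for all genes of that library, while in the replicate 2 libraries the medians were 162 bp in HSC and 164 bp in LSC, against 210 bp and 207 bp.

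**Figure D2:**
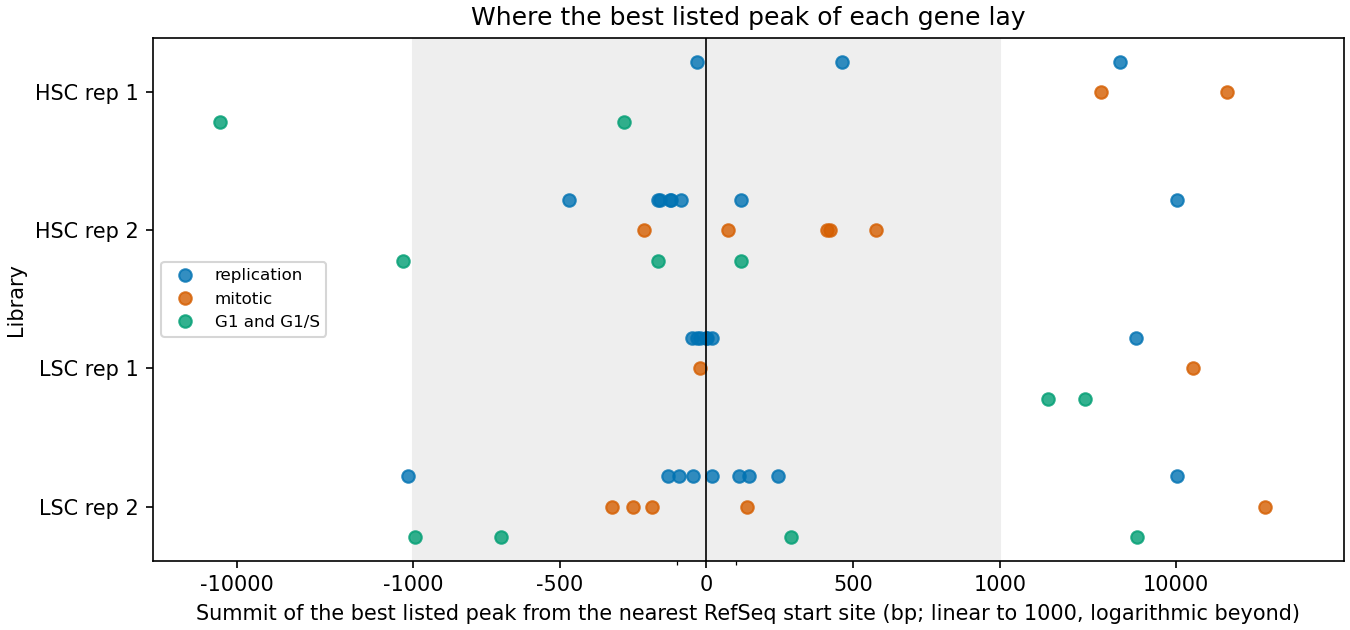
Distance in bp from the nearest RefSeq start site to the summit of the best listed peak (negative is upstream; linear to 1000 bp, logarithmic beyond) for listed genes with a known start, 1 row of points per role and library; the grey band is 1 kb on each side. In LSC replicate 1, 6 replication genes lie between -48 and 18 bp.

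Promoter sequences are shown for 6 genes on which these results turn, from 250 bases before to 50 bases after the start, 5′ to 3′, from RefSeq for GRCm38.p6: Pcna with a start peak in every library, Cdc6 with one in every library but HSC replicate 1, Dut with one in LSC alone, Mcm6 with one listed in every library but LSC replicate 1, Aurka with one listed in replicate 2 alone, and Ccnb2 with none listed. Capitals mark letters searched for on both strands, namely TTCCCGC or its variant TTGGCGC (forms of the E2F site), CCAAT (the CCAAT box), TTTGAA (the CHR element), CCGGAAG (ETS family), GGGCGG (the GC box) and ATGGCGG (a form of the YY1 site).
Pcna (chr2:132253131-132253430, minus strand): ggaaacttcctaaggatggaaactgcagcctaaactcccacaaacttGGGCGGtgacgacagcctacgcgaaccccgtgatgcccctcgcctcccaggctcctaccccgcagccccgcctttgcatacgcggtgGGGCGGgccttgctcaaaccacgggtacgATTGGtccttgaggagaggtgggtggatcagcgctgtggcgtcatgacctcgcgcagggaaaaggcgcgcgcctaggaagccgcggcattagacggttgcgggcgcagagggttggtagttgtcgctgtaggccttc
Cdc6 (chr11:98907901-98908200, plus strand): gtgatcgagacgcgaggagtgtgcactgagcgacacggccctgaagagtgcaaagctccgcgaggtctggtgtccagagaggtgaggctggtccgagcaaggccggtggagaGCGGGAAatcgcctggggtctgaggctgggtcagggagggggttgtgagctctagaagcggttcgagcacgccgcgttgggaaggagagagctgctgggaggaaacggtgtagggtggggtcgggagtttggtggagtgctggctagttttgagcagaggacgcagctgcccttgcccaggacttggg
Dut (chr2:125247265-125247564, plus strand): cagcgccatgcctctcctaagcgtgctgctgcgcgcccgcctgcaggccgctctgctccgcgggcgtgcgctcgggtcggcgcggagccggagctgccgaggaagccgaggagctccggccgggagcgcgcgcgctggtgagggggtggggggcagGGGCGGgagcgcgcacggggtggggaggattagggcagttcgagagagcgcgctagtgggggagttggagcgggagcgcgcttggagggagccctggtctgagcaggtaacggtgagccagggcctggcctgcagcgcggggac
Mcm6 (chr1:128359656-128359955, minus strand): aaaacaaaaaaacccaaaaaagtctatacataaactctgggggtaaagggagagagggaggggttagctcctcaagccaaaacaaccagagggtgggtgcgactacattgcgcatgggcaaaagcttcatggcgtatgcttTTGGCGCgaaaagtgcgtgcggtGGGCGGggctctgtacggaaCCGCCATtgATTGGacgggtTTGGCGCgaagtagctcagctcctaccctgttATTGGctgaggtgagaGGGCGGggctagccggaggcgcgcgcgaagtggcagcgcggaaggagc
Aurka (chr2:172370521-172370820, minus strand): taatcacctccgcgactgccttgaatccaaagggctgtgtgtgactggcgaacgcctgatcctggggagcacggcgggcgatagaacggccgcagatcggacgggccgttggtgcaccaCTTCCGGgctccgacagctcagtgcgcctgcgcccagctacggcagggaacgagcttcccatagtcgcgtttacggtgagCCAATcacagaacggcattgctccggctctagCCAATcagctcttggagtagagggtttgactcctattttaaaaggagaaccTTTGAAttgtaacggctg
Ccnb2 (chr9:70421505-70421804, minus strand): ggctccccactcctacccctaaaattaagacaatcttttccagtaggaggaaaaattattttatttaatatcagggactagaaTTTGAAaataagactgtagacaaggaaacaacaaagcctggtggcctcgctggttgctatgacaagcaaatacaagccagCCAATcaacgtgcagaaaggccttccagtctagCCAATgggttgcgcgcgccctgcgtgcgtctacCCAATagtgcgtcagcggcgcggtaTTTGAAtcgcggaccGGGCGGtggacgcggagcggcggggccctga

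The role groups held different letters. TTTGAA was found in the promoter window of 7 of 9 mitotic genes, 1 of 12 replication genes and 0 of 5 genes of G1 and S entry, beside 17.9% of all 32851 windows in the table. CCAAT was found in 9 of 9, 8 of 12 and 2 of 5 in that order, beside 37.4%. A form of the E2F site was found in 3 of 9 mitotic genes, 7 of 12 replication genes and 1 of 5 genes of G1 and S entry, beside 6.81%. The CCAAT box read on the opposite strand can overlap TTGGCGC, so those counts are not independent. The GC box was found in 22 of 26 members beside 35.7%, the ETS letters in 5 of 26 beside 8.86%, and the YY1 letters in 3 of 26 beside 4.05%. The promoter windows of the members were richer in G and C, with a median of 59% against 52.7%, and the part of base composition in the peaks was not tested. The members, with 28 windows, were counted by gene with a match in any window. The shares beside them are of single windows over the whole promoter table, so the units differ. A match is a run of letters and no evidence of a bound factor. Aurka and Ccnb2, which both hold CCAAT and TTTGAA, differed in their peaks: Aurka was listed in both replicate 2 libraries and Ccnb2 in no library.

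Of 13 replication genes, 3 (23.1%), 9 (69.2%), 8 (61.5%) and 10 (76.9%) were listed. Of 10 mitotic genes the counts were 2 (20%), 6 (60%), 2 (20%) and 6 (60%), and of 9 genes of G1 and S entry 4 (44.4%), 7 (77.8%), 2 (22.2%) and 8 (88.9%). The shares of all genes were 30.2%, 41.2%, 32.3% and 41.2%. Mitotic genes were below the share of all genes in both replicate 1 libraries, with 2 listed genes in each. Replication genes were below it in HSC replicate 1 (3 listed), and genes of G1 and S entry in LSC replicate 1 (2 listed). So few genes cannot tell these shares apart from that of all genes. The role groups lay farthest apart in LSC replicate 1, where replication genes stood at 61.5% and the other roles at 20% and 22.2%, beside 32.3% of all genes. The excess of replication over mitotic genes was 3.08, 9.23, 41.5 and 16.9 percentage points, a mean of 17.7 ± 16.9 (SD, n = 4 libraries). It fell to 9.74 without LSC replicate 1. It also rested on the length of the lists, being -0.962 with the 40000 strongest peaks, where 7 of 10 mitotic genes (70%) were listed in HSC replicate 1, and -8.46 with all deposited peaks. With longer lists replication genes were thus no longer ahead of mitotic genes. The share of all genes was not counted with the 40000 strongest peaks.

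**Figure D3:**
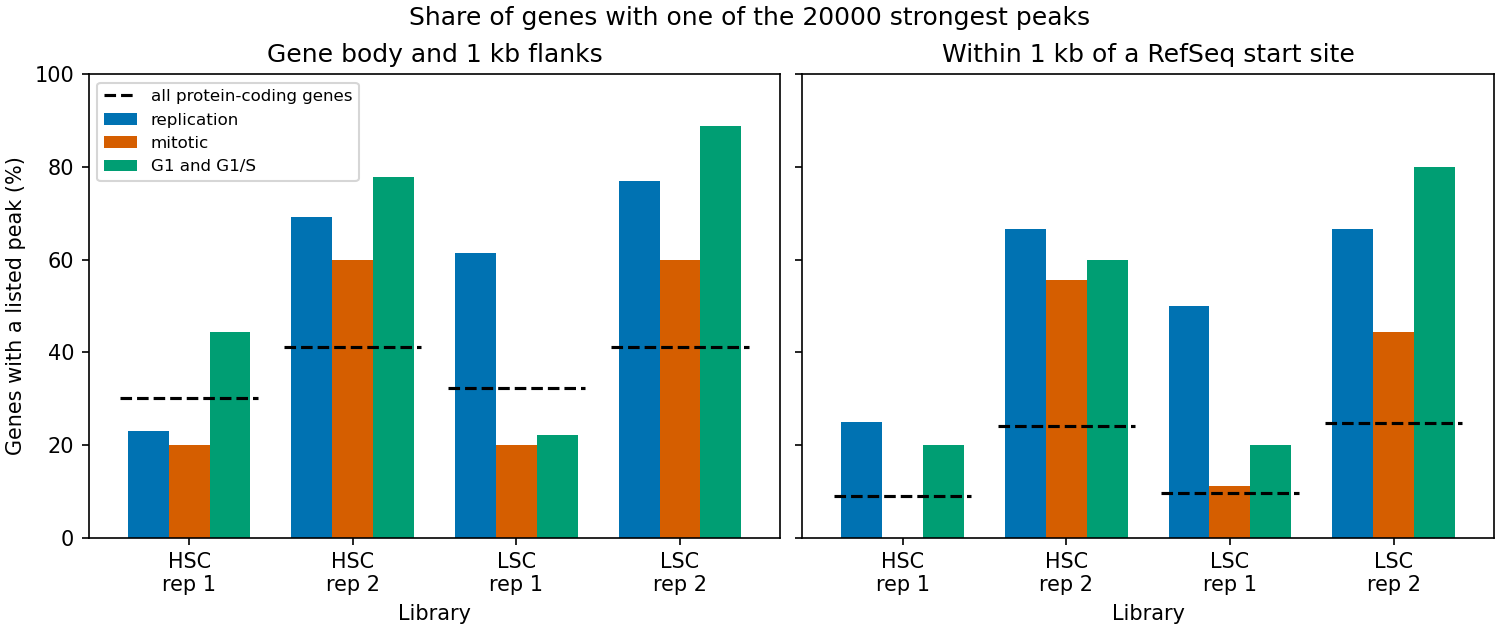
Share of replication (blue), mitotic (orange) and G1 and G1/S (green) genes with a listed peak in each library, on the left in the gene body and 1 kb flanks and on the right within 1 kb of a RefSeq start site; dashed lines give all protein-coding genes. Bars of the replicate 2 libraries lie above their dashed line in both panels, and the replication bar of LSC replicate 1 (61.5%) stands above a line at 32.3%.

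Pcna (chromosome 2, 132249286 to 132253180, minus strand) carried its best peak at the start site in all 4 libraries. The peak ranked 279, 579, 4879 and 591. The fold is the authors' value for each peak over the background of its own library, and here it was 81.7, 40.2, 59.8 and 60.4, and the pileup (the reads stacked on the summit) recovered from it was 298, 214, 326 and 284. Summits lay at 464, -120, 0 and -45 bp from the start (negative is upstream), and the 4 peaks overlapped one another. The promoter shown holds GC box letters from bases -203 and -116 and a CCAAT box from base -87. An annotated end of the neighbouring gene Cds2 also lies within 1 kb of this peak, so the peak is not assigned to Pcna alone.

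The MCM2 to MCM7 genes encode the ring-shaped helicase that opens DNA at origins, and they were not listed in the same libraries. Mcm4 ranked 95313, 170, 649 and 694, with folds of 11.8, 67.4, 103 and 56.8, at the end it shares within 1 kb with Prkdc, the gene of the DNA-dependent protein kinase. Mcm6 ranked 1722, 2393, 22561 and 1336, with its listed peaks at the start (summits 32, 159 and 92 bp before it) and its best peak in LSC replicate 1 inside the gene. Mcm4 was thus unlisted in HSC 1 alone and Mcm6 in LSC 1 alone. Mcm7 ranked 76113, 1372, 7769 and 831, and its replicate 2 peaks lay within 1 kb of an end of Ap4m1. In LSC replicate 1 the best Mcm7 peak lay 5971 bp after the start, and the start peak ranked 191658. By start-site windows Mcm7 was listed in 2 libraries. Mcm5 ranked 9011, 2018, 97817 and 8710, the best peak of HSC replicate 1 lying 4801 bp inside the gene. HSC replicate 1 also had a listed start peak at Mcm5, of rank 19644 with its summit at -22 bp. Mcm2 was listed nowhere, with ranks of 118415, 61777 and 69893 and no peak in LSC replicate 1. With 3 kb flanks Mcm2 was listed in 2 libraries. By listing, Mcm4 and Mcm7 shared a pattern (all but HSC 1), as did Mcm5 and Mcm6 (all but LSC 1), while Mcm2 and Mcm3 each had their own.

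The origin licensing factors Cdc6 and Cdt1, which load the helicase, were both listed in HSC replicate 2 and both LSC libraries. Cdc6 (chromosome 11, 98907709 to 98923942, plus strand) had no peak in HSC replicate 1, ranked 2033 in HSC replicate 2, and ranked 301 and 1142 in LSC. Its folds were 24.9, 126 and 47.2 in those 3 libraries, with pileups of 132, 688 and 222. In both LSC libraries the summit lay at the start (1 bp after and 130 bp before it), while the best peak of HSC replicate 2 lay 10122 bp downstream beside a start peak of rank 2459. The lowest pileup of any peak deposited for HSC replicate 1 was 14. Cdt1 ranked 91066, 9573, 3185 and 15519. Its summit lay 165 bp before the start in HSC replicate 2, 48 bp before it in LSC replicate 1 and at -1070 bp, outside the window, in LSC replicate 2. Cdt1 was listed in 2 libraries rather than 3 when the summit had to lie in the window, and in 1 among the best 25% of genes.

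Genes for deoxynucleotide supply differed in where they were listed. Rrm1 and Rrm2 encode the subunits of ribonucleotide reductase. Rrm1 ranked 105132, 7300, 7890 and 159111, and Rrm2 had no peak in HSC replicate 1 and ranked 2781, 155714 and 4822 in the others. Rrm1 was thus listed in HSC replicate 2 and LSC replicate 1 and Rrm2 in both replicate 2 libraries. Tyms, the thymidylate synthase that makes dTMP, was listed in no library. It had no peak in either HSC library and unlisted peaks inside the gene in LSC (ranks 172606 and 69601, pileups 33 and 50).

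Dut and Mcm3 were the members listed in both LSC libraries and in neither HSC library (2 of 32, 6.25%, beside 2.35% of all genes). Dut encodes dUTPase, which keeps uracil out of DNA and supplies dUMP to Tyms. At Dut (chromosome 2, 125247248 to 125259049, plus strand) neither HSC list held a peak of any strength in the gene or its flanks, and the LSC peaks ranked 1035 and 1008, with folds of 94.1 and 49.6. The recovered pileups were 513 and 233 in LSC, where the lowest pileup in the HSC lists was 14 and 18. The LSC peaks overlapped each other, with summits 21 bp before and 144 bp after the start, on a promoter of 75% G and C that holds a single match to the letters searched, a GC box. Dut stayed LSC-only with the 10000 and 40000 strongest peaks and with all deposited peaks, where Tyms joined it.

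Mcm3 (chromosome 1, 20802966 to 20820312, minus strand) had peaks in all 4 libraries, ranked 97170, 37903, 3085 and 16180. The LSC peaks lay at different places, 31 bp before the start in replicate 1 and 10157 bp inside the gene in replicate 2, and both HSC libraries had unlisted peaks 784 and 1074 bp after the start. Mcm3 was no longer LSC-only with the 10000 or 40000 strongest peaks, with all deposited peaks, with windows at gene ends or starts, or among the best 25% of genes.

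Among the mitotic genes, Mki67 was the member listed in both HSC libraries and in neither LSC library (1 of 32, 3.12%, beside 2.09% of all genes). Mki67 encodes Ki-67, the surface coat of mitotic chromosomes and the common marker of cycling cells. It (chromosome 7, 135689784 to 135716450, minus strand) ranked 506, 1576, 78000 and 182903. Folds were 68.6, 27.3, 14.5 and 5.29 in that order. The HSC peaks did not coincide: the replicate 1 peak lay 19424 bp inside the gene and the replicate 2 peak 421 bp after the start, and at the start HSC replicate 1 had only a peak of rank 135480. With windows at gene ends or at starts, Mki67 was listed in HSC replicate 2 alone.

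Of the other mitotic genes, 4 were listed in both replicate 2 libraries alone (Ccnb1, Aurka, Aurkb and Top2a). Their replicate 2 best peaks overlapped at Aurka and Aurkb and not at Ccnb1 and Top2a. Cyclin B1 and its kinase drive entry into mitosis. Ccnb1 ranked 25977 and 2214 in HSC, had no peak in LSC replicate 1 and ranked 5942 in LSC replicate 2. Cdk1, the kinase, ranked 71461, 5179, 7101 and 5033, with start-site summits in the replicate 2 libraries and a summit 12487 bp inside the gene in LSC replicate 1. Ccnb2, the partner cyclin, ranked 108232, 56397, 53109 and 74104. Of the Aurora kinases, Aurka (spindle poles) ranked 21318, 1076, 86852 and 638, with replicate 2 summits 214 and 185 bp before the start and an end of Cstf1 within 1 kb of them. Aurkb (centromeres) ranked 22416, 8819, 26914 and 3553. Both Aurora genes were thus listed in replicate 2 of each cell type and in neither replicate 1 library. With the 40000 strongest peaks Aurkb was listed in 4 libraries and Aurka in 3.

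Top2a, the topoisomerase that disentangles sister chromatids, had no peak in HSC replicate 1 and ranked 1300, 20905 and 13970 in the others. Its summit lay 410 bp after the start in HSC replicate 2. In LSC replicate 2 it lay 32124 bp after the start, beyond the far end of the gene. With at least 50% of the peak in the window, Top2a was listed in 1 library. Cdc20, an activator of the anaphase-promoting complex, ranked 3496, 25403, 4679 and 9634. The HSC replicate 1 peak lay near the far end of the gene, 3751 bp after the start and within 1 kb of Elovl1, while the LSC peaks lay 20 and 251 bp before the start. By start-site windows Cdc20 was listed in both LSC and neither HSC library, with a start peak of rank 25403 in HSC replicate 2 and none in HSC replicate 1. The checkpoint kinase gene Bub1 ranked 34997, 158852, 108538 and 22081, and Plk1, a kinase of mitotic entry and spindle assembly, ranked 32583, 120793, 77993 and 46338. Both had peaks in every library and a listed one in none. With the 40000 strongest peaks Bub1 was listed in 2 libraries and Plk1 in 1.

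Among the genes of G1 and S entry, Ccnd3 (chromosome 17, 47505051 to 47599689, plus strand) was listed everywhere, at ranks 7752, 1535, 369 and 4342. It is the longest member at 94639 bp and held 1, 4, 7 and 7 listed peaks. Its best peaks lay at different places, at the start in HSC replicate 2 (118 bp after it), 3034 and 6041 bp inside the gene in LSC, and at -12399 bp from its nearest start, a downstream one, in HSC replicate 1. No pair of libraries shared an overlapping best peak at Ccnd3. Ccnd1 had no peak in either replicate 1 library and ranked 2756 and 4591 in HSC and LSC replicate 2. Ccnd2 ranked 19094, 18858, 50970 and 16043, with overlapping best peaks in the 3 libraries where it was listed.

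Cdk4, the kinase of the D cyclins, ranked 4900 and 850 in HSC, 168408 in LSC replicate 1 and 1285 in LSC replicate 2, at its start in the 3 libraries where it was listed. Cdk2, the partner of cyclins E and A, was listed in LSC replicate 1 alone, with ranks of 131504, 65890, 1749 and 55711, the listed LSC replicate 1 peak lying 1878 bp after the start. That pattern rested on the 1 kb flanks, since with 3 kb flanks Cdk2 was listed in all 4 libraries. Of the E cyclins, Ccne2 ranked 2620 and 1621 in HSC and 3089 in LSC replicate 2, with no peak in LSC replicate 1. Ccne1 ranked 121095 and 27227 in HSC and 8678 in LSC replicate 2, and also had no peak in LSC replicate 1. Ccna2, which encodes the cyclin of S phase and G2, ranked 78446, 3136, 210296 and 14779. E2f1, the transcription factor, ranked 78372, 1759, 67774 and 12149. In LSC replicate 1, Cdk2 and Ccnd3 were thus the listed genes of this role, where LSC replicate 2 listed all of them but Cdk2.

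Compared at replicate number 1, 9 members were listed in LSC and not in HSC (28.1%, beside 15% of all genes), and 6 in HSC and not in LSC (18.8%, beside 12.9%). The 9 were 7 replication genes (Cdc6, Cdt1, Dut, Mcm3, Mcm4, Mcm7 and Rrm1) with Cdk1 and Cdk2. The 6 were Mcm5, Mcm6, Mki67, Ccnd2, Ccne2 and Cdk4. At replicate number 2, 4 members were listed in LSC alone (12.5%, beside 12.4%), namely Dut, Mcm3, Cdc20 and Ccne1, and 2 in HSC alone (6.25%, beside 12.4%), Mki67 and Rrm1. Of the 7 replication genes listed in LSC alone at replicate number 1, Dut and Mcm3 were so at replicate number 2 too, and Rrm1 was listed there in HSC alone. Both replicate 2 libraries listed 20 of 32 members, beside 6303 of 21887 genes. Their best peaks overlapped in 13 of the 20 members (65%, beside 52.7% of all genes listed in both). In both replicate 1 libraries 3 of 32 members were listed, beside 3794 of 21887 genes. The best peaks overlapped in 1 of the 3 members, Pcna (33.3%, beside 18.5% of all genes listed in both).

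**Figure D4:**
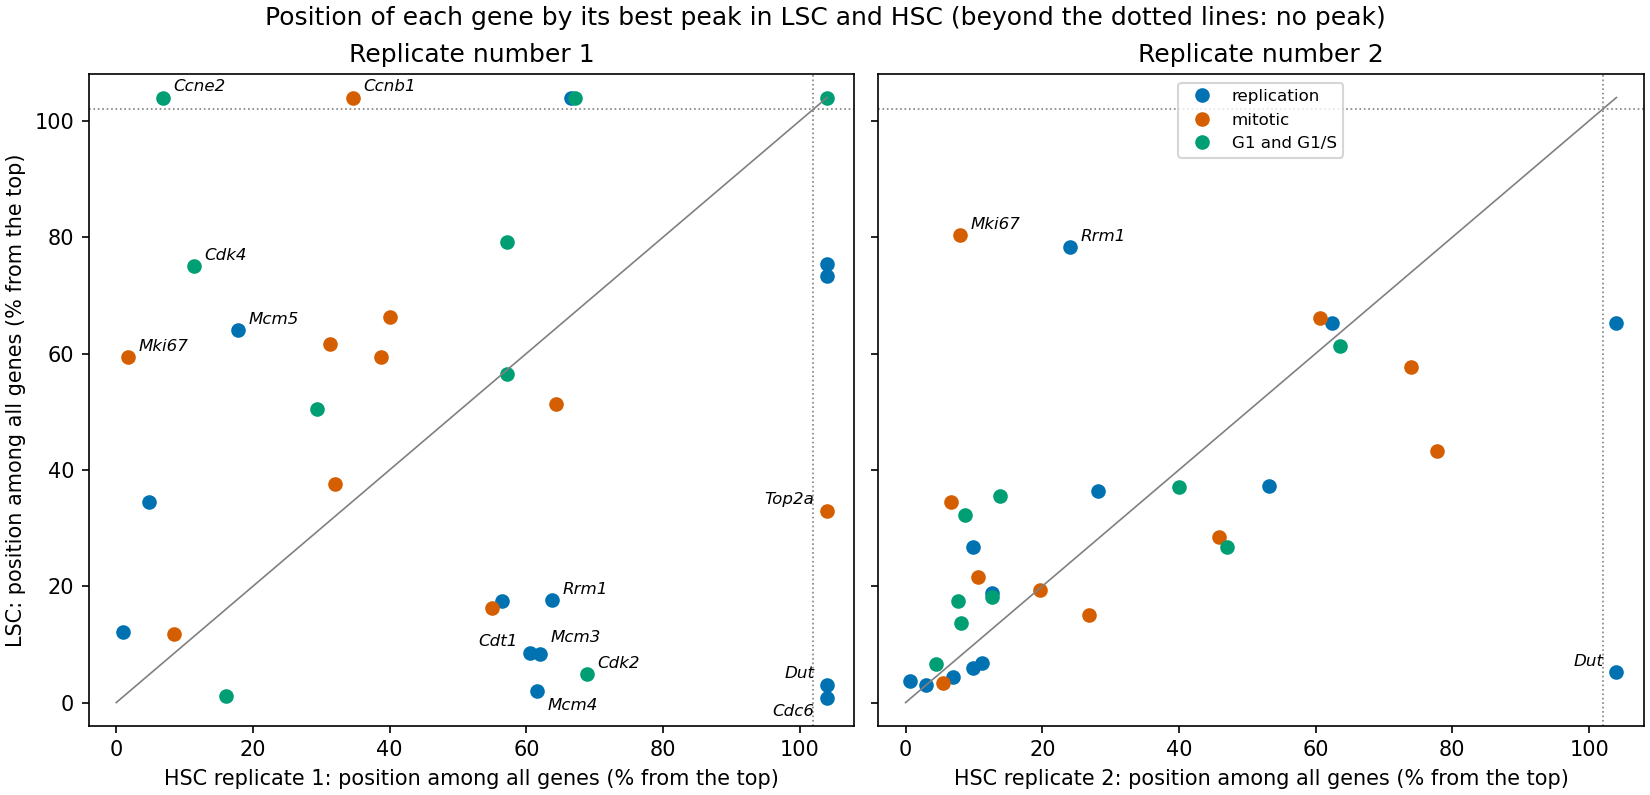
Position of each gene by its best peak (% from the top of 21887 genes) in HSC (x axis) and LSC (y axis) at replicate number 1 (left) and 2 (right), coloured by role; points beyond the dotted lines have no deposited peak, and the diagonal marks equal positions. Genes far from the diagonal are named; Dut and Mki67 are named in the same direction in both panels.

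Other genes of the same pathways came from lists chosen by function. Their shares stand beside 30.2%, 41.2%, 32.3% and 41.2% of all genes listed. Of 48 further replication genes, 14 (29.2%), 27 (56.2%), 14 (29.2%) and 33 (68.8%) were listed, and 3 were listed in all (6.25%, beside 11.3% of all genes), namely Gins2, Prim2 and Uhrf1. The share of 61.5% in LSC replicate 1 among the 13 members was therefore not seen in this larger group, which stood at 29.2% beside 32.3% of all genes. Of 46 further mitotic genes, 12 (26.1%), 27 (58.7%), 23 (50%) and 22 (47.8%) were listed, and 7 in all libraries (15.2%), among them Cdca3, Kif20a, Cdc25b, Ect2, Cks2 and Ndc80. Of 27 further genes of G1 and S entry, 14 (51.9%), 18 (66.7%), 15 (55.6%) and 19 (70.4%) were listed, and 8 in all libraries (29.6%), among them Lin52, Cdk6, Fzr1, Cdc25a, E2f7 and Lin54. In LSC replicate 1 the further replication genes (29.2%) thus stood below the further mitotic genes (50%) and the further G1 genes (55.6%). Among the members, replication genes stood above both (61.5%, against 20% and 22.2%). The further genes are longer, with median lengths of 22142, 27650 and 33919 bp against 13685 bp for the members. Within 1 kb of a start, 4 of 38 further replication genes (10.5%) were listed in HSC replicate 1 and 4 (10.5%) in LSC replicate 1, and 19 (50%) and 20 (52.6%) in replicate 2 of each. The shares of all genes were 9.03% and 9.54% in replicate 1 and 24.1% and 24.8% in replicate 2, so the replicate 1 shares were near the background and all genes were also listed more often in replicate 2. Genes listed in both LSC and neither HSC library were Gins1, Orc4, Rpa1 and Rpa2 among the further replication genes (8.33%, beside 2.35% of all genes), Tpx2 among the mitotic (2.17%) and Rb1 among the G1 genes (3.7%), the last 2 shares being near the background. Exo1 (2.08%) and Incenp (2.17%) had the reverse pattern, beside 2.09% of all genes.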

How the data were processed

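Peaks of 4 libraries, in 1 deposited list each, were used. The submitters' processing notes name FastQC 0.11.5, Bowtie2 2.2.9, MACS2, ChIPseeker and mm10, and thresholds, filters on reads and the treatment of duplicates were not given in the sources used here. The score deposited by the authors follows the q-value and was not used. The fold deposited by the authors is a ratio, whose values match summit pileup plus 1 over 1 background per library plus 1. Each peak also has −log10 values of p and q from the authors.

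Ranking by −log10 p used the autosomes 1 to 19 with both sex chromosomes (Python 3.11.15, pandas 2.3.3). With a background pileup, recovered from the values, of 2.66, 4.34, 4.46 and 3.72 in HSC 1, HSC 2, LSC 1 and LSC 2, the folds under 50 gave whole pileups (within 0.05) for 100% of peaks. The weakest listed fold was 22.7, 12.7, 28.4 and 18.2. Folds were read within a library alone. The code for overlap, listing and recovery of the background was checked on simulated data. The planted peaks there were stronger than all others, so peaks near the limit of the list were not tested. The members, roles, lists and the rule for named genes were chosen with earlier results of these data known. That rule named members listed in all libraries, in 1 cell type alone or without a peak in some library, and the 3 with the best worst rank per role; the other members were added so that all 32 are given. Start-site windows and the best 25% of genes were added after the data were seen.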

Additional observations from a re-analysis of the deposited data

How the results depend on the processing

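Ranking by fold gave the values reported for all 6 summary counts and differences, as it had to. Within a library, fold and p both follow from the summit pileup and 1 background, so they order the peaks alike. The 2 genes listed in all libraries became 5 with the 40000 strongest peaks, 22 with all deposited peaks, 1 with windows at gene ends and 1 at start sites. With 3 kb flanks there were 3, as Cdk2 joined Ccnd3 and Pcna. A longer list or wider window lists more genes of any kind. Under these settings the share of all genes listed in all libraries was counted at start sites alone (2.84%). The counts here and below thus show how far values depend on the settings, and are not results about the members. With a library left out the number of genes listed in all libraries ranged from 2 to 7 (7 if HSC replicate 1 or LSC replicate 1 was dropped). Leaving out a library removes a condition, so counts of genes listed everywhere or in 1 cell type alone can only stay or rise. The 2 LSC-only genes became 1 with the 10000 strongest peaks, 1 with the 40000 strongest, 1 at gene ends and 1 in the best 25% of genes, and ranged from 3 to 7 with a library left out (7 without HSC replicate 2). The 1 HSC-only gene became 0 with all deposited peaks, 0 at gene ends, 0 at start sites and 2 in the best 25% of genes, and ranged from 1 to 6 with a library left out (6 without LSC replicate 2).

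The difference between cell types (2.5 genes) was 0.5 to 2 under the other list lengths and windows and 0 in the best 25% of genes. It ranged from -4 to 9 with a library left out, being -4 without HSC replicate 1, 9 when its replicate 2 was dropped, 8.5 without LSC replicate 1 and -3.5 when LSC replicate 2 was dropped. With a replicate block it was 2.5 ± 0.707 (SD of 2 pairs). Across 21887 genes, deviations of same-numbered libraries from their group mean correlated at 0.273, and peak names, chromosome Y peaks and gene-end shares also went with the number. The labels name no shared animal, batch or day, so what the numbers mark is not known. The excess of replication over mitotic genes turned to -0.962 with the 40000 strongest peaks and to -8.46 with all deposited peaks, and ranged from 9.74 to 22.6 with a library left out. The excess of replicate 2 over replicate 1 (12.5 genes) was 9.5 with the 10000 strongest peaks, 10.5 with the 40000 strongest, 4.5 with all deposited peaks, 10 at start sites and 7 in the best 25% of genes, and ranged from 12 to 13 with a library left out. Of 474 further values (per library, role or gene), 402 stayed within 1.5 times. Of these, 48 came from ranking by fold, where no change was possible. The lists give neither read depth nor a background from an antibody-free library, which limits each statement that a gene lacks a peak.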
